A study of Caenorhabditis elegans with 24 samples.

Results

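Genes of the synapse, of the dense-core vesicle and of transmitter chemistry were followed in the nematode Caenorhabditis elegans. The 33 genes were chosen for their roles, with earlier results of these data known. A gene was kept if a probe set of the array carried its symbol and no other. Of 25434 genes tested, 31 were such members. They comprise 12 genes of vesicle release, 6 of dense-core vesicles and peptide processing, 2 general neuronal regulators, 3 channel genes and 8 genes of transmitter synthesis and transport. The cholinergic genes cha-1 and unc-17 share 1 probe set and were not analysed here.

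Neurons release transmitters from synaptic vesicles and peptides from dense-core vesicles. Both kinds of vesicle fuse with the membrane through SNARE proteins, which are primed by factors such as UNC-13 and triggered by calcium. Neuropeptides are cut from precursors inside the dense-core vesicle by processing enzymes. Most small transmitters, by contrast, are made in the cytosol and are then pumped into vesicles. Within the nervous system, the enzymes that make them mark the neurons that use them. Most neurons therefore use the release machinery, and within the nervous system a transmitter gene is used by the neurons of its transmitter.

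Messenger RNA was measured with Affymetrix gene arrays on 24 preparations of whole worms, in 8 groups of 3. The groups were wild-type worms and daf-16(mgDF47) mutants, as adults or as late L4 larvae, at 15 °C or 25 °C. Adults had spent 3 days at the temperature after late L4 and about 120 were pooled per preparation, so that temperature and progress through adult life cannot be told apart. Larvae were kept at their temperature since embryonic life, matched by stage, and each preparation pooled some 300. The gene daf-16 encodes the FOXO factor at the end of insulin-like signalling, and mgDF47 is a deletion allele.

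Values are on the log2 scale, a difference of 1 being a doubling, and are given for the 3 arrays of a group. Differences are 25 °C minus 15 °C, or mutant minus wild type, with the standard error (SE) of limma's fit of all 8 groups. A gene "rose", "fell" or "was called" if limma's p, adjusted over all 25434 genes, was under 0.05. Whether preparations came from separate cultures is not stated, so p-values measure only the spread between these preparations. Array medians ran from 3.57 to 3.72 in adults and from 3.05 to 3.12 in larvae, and the stages look to have been normalized apart. Levels were therefore not compared between stages, or between genes. In the mutant, daf-16 lay between 8.02 and 8.83 on adult arrays and between 5.99 and 6.57 on larval ones, against 10.36 to 10.63 and 8.50 to 8.78 in the wild type. No mutant array overlapped a wild-type array of its stage for this gene.

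In wild-type adults, 16 of the 31 members rose at 25 °C and 1 fell. All but 1 of the 16 belonged to release, dense-core vesicle, regulator or channel genes, where 15 of 23 rose and 0 fell. Of the 8 transmitter genes 1 rose, the GABA enzyme gene unc-25, and 1 fell, tdc-1, which makes tyramine. Over all genes tested, 15.1% rose and 15% fell, against 51.6% and 3.2% of the members. Most members lie above the array median, and among the 12711 genes with an adult mean above it, 25.6% rose and 24% fell. The median difference was 0.61 for the 23 genes and -0.05 for the 8 transmitter genes, against -0.10 for all genes. With each array centred on its median, 14 members rose and 2 fell, while the share of rises among the calls over all genes moved from 50.2% to 36%. In whole worms, a larger share of a tissue in the pooled RNA and more RNA of a gene per cell cannot be told apart.

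The rises were largest among the dense-core vesicle genes, of which 5 of 6 rose. The gene sbt-1 encodes a 7B2-like chaperone of the proprotein convertase EGL-3. In wild-type adults sbt-1 read 5.80, 6.08 and 5.98 at 15 °C and 7.55, 7.83 and 7.71 at 25 °C. The 2 temperatures were thus far apart, and the difference of 1.74 ± 0.14 (SE) amounts to 3.35-fold (limma, adjusted p = 6.9e-09). In the mutant sbt-1 read 5.96, 6.37 and 6.61 at 15 °C and 7.55, 7.78 and 7.71 at 25 °C. The warm values of both genotypes coincided, and the mutant rose by 1.36 ± 0.14 (adjusted p = 3.1e-07).

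The gene ida-1 encodes a receptor-type phosphatase homologue of the dense-core vesicle membrane. It read 4.38, 4.98 and 5.03 in cool and 6.57, 6.36 and 6.21 in warm wild-type adults, a rise of 1.58 ± 0.17 (limma, adjusted p = 2.7e-07). In mutant adults ida-1 went from 4.97, 5.37 and 5.04 to 6.16, 6.50 and 6.28, a rise of 1.19 ± 0.17 (adjusted p = 1.8e-05). No cool array reached a warm one in either genotype.

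The processing enzymes themselves rose with their chaperone. The gene egl-3 encodes the proprotein convertase that cuts neuropeptide precursors, and egl-21 the carboxypeptidase that trims the cut ends. In wild-type adults egl-3 read 7.04, 7.19 and 7.19 at 15 °C and 8.37, 8.34 and 8.26 at 25 °C, a rise of 1.18 ± 0.14 (limma, adjusted p = 1.6e-06). In the mutant egl-3 read 7.18, 7.50 and 7.64 against 8.20, 8.71 and 8.54, a rise of 1.04 ± 0.14 (adjusted p = 1.2e-05). For egl-21 the wild-type values were 8.29, 8.38 and 8.35 against 9.43, 9.30 and 9.20, a rise of 0.97 ± 0.12 (adjusted p = 1.2e-06). In both genes the warm and cool groups were apart in both genotypes, and egl-21 rose by 0.65 ± 0.12 in the mutant (adjusted p = 2.1e-04).

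The other members of the group divided. The gene ric-19, whose product takes part in dense-core vesicle maturation, rose in the wild type from 3.80, 3.95 and 3.89 to 4.39, 4.64 and 4.43 (0.61 ± 0.13; limma, adjusted p = 7.2e-04). In the mutant ric-19 read 3.58, 3.89 and 3.46 at 15 °C and 3.76, 3.82 and 3.79 at 25 °C, so that the groups overlapped (0.15 ± 0.13, adjusted p = 0.41). The gene unc-31 encodes CAPS, the priming factor of dense-core vesicles. It lay between 3.95 and 4.35 on all 12 adult arrays. Its differences of 0.01 ± 0.17 in the wild type and 0.11 ± 0.17 in the mutant had 95% intervals of -0.34 to 0.36 and -0.24 to 0.46.

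**Figure D1:**
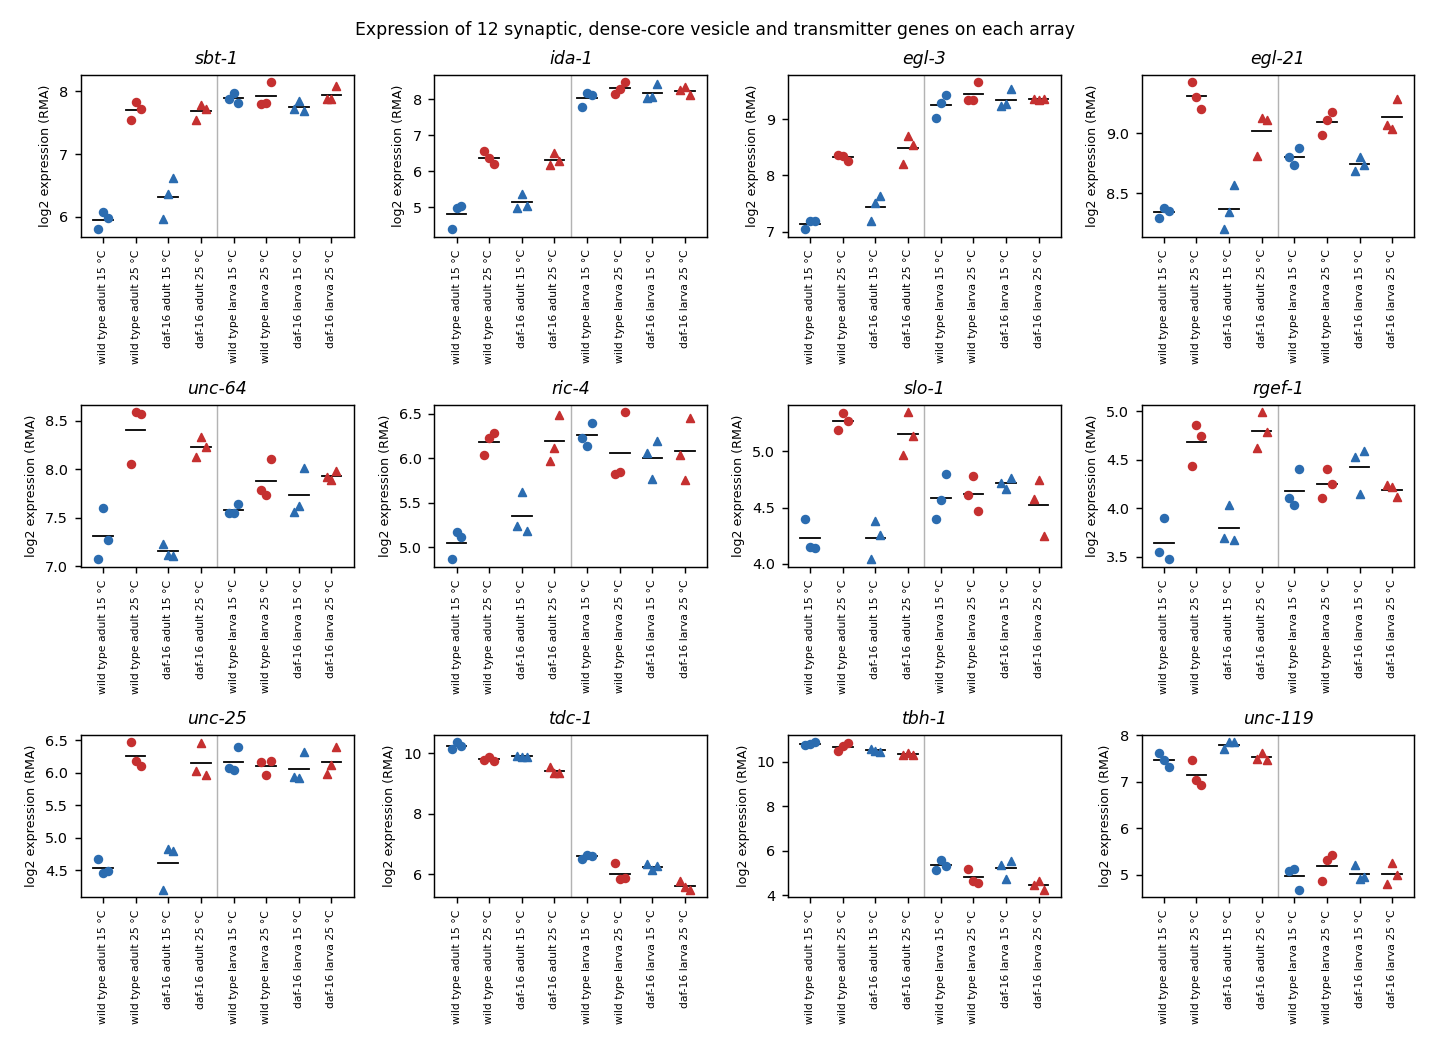
Log2 expression of 12 members on each of the 24 arrays, by group; circles are wild type, triangles daf-16, blue 15 °C, red 25 °C, and bars are group means. Adults lie left of the grey line and larvae right of it, and levels are not comparable across it; sbt-1, ida-1, egl-3, egl-21 and unc-25 separate by temperature in adults, while tdc-1 is lower at 25 °C in all 4 pairs.

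Of the 12 release genes, 8 rose in wild-type adults and 0 fell, and 5 rose in mutant adults. The SNARE genes ric-4 (SNAP-25) and unc-64 (syntaxin) had the largest differences in the wild type, whereas in the mutant unc-64 was followed by cpx-1. In wild-type adults unc-64 read 7.07, 7.60 and 7.27 at 15 °C and 8.05, 8.59 and 8.57 at 25 °C, a rise of 1.09 ± 0.15 (limma, adjusted p = 1e-05). In mutants unc-64 went from 7.23, 7.12 and 7.11 to 8.13, 8.33 and 8.23 (1.08 ± 0.15, adjusted p = 1.7e-05). The sizes in the 2 genotypes were nearly equal for this gene.

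For ric-4 the wild-type values were 4.86, 5.17 and 5.11 against 6.04, 6.23 and 6.28, a rise of 1.14 ± 0.19 (limma, adjusted p = 9e-05), and the mutant rose by 0.84 ± 0.19 (adjusted p = 0.0025). The vesicle SNARE snb-1 (synaptobrevin) had the smallest rise of the called release genes. It read 11.13, 11.12 and 11.15 at 15 °C and 11.35, 11.43 and 11.44 at 25 °C in the wild type (0.27 ± 0.10, adjusted p = 0.035). The groups of snb-1 were apart in the mutant as well, but the difference of 0.21 ± 0.10 was not called (adjusted p = 0.12).

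The other 5 called release genes were unc-104, rab-3, cpx-1, snt-1 and unc-18. The kinesin gene unc-104, which carries synaptic vesicle precursors along axons, rose by 0.83 ± 0.16 in the wild type and 0.69 ± 0.16 in the mutant (limma, adjusted p = 4.1e-04 and 0.0031). The vesicle GTPase gene rab-3 rose from 6.40, 6.52 and 6.53 to 7.08, 7.17 and 7.04 in the wild type and by 0.84 ± 0.13 in the mutant (adjusted p = 8.1e-04 and 3.8e-05). The complexin gene cpx-1, a brake and promoter of fusion, rose from 4.51, 4.43 and 3.99 to 5.12, 4.68 and 4.68 in the wild type (0.51 ± 0.16, adjusted p = 0.015). In the mutant cpx-1 rose from 4.41, 4.81 and 4.82 to 5.39, 5.67 and 5.54 (0.85 ± 0.16, adjusted p = 2.9e-04). The calcium sensor gene snt-1 (synaptotagmin) rose in the wild type (0.67 ± 0.16, adjusted p = 0.0025), and its difference of 0.43 ± 0.16 in the mutant had adjusted p = 0.052. The syntaxin-binding gene unc-18 rose in the wild type (0.36 ± 0.13, adjusted p = 0.041), with 0.22 ± 0.13 in the mutant (adjusted p = 0.24).

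The calls of cpx-1, snb-1 and unc-18 in wild-type adults hung on single arrays. cpx-1 was not called without wild-type adult 15 °C replicate 3 or 25 °C replicate 1, nor after cyclic loess. snb-1 lost its call in 5 of 6 and unc-18 in 4 of 6 runs without 1 array, and both lost it with arrays centred on their medians.

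The remaining 4 of the 12 release genes were not called in either genotype. The differences in wild-type adults were 0.26 ± 0.17 for the priming factor gene unc-13, 0.15 ± 0.16 for the RIM gene unc-10, 0.32 ± 0.14 for the tomosyn gene tom-1 and -0.34 ± 0.15 for the liprin gene syd-2. Their adjusted p-values by limma were 0.25, 0.52, 0.098 and 0.092. For syd-2 the arrays read 6.89, 6.82 and 6.76 at 15 °C and 6.30, 6.53 and 6.63 at 25 °C, so that every warm array was below every cool one. In the mutant the 4 differences ran from -0.13 for tom-1 to 0.37 for unc-13.

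The regulators and channels split in the same way. The gene rgef-1, which encodes a Ras guanine nucleotide exchange factor made throughout the nervous system, rose by 1.03 ± 0.16 in the wild type and 1 ± 0.16 in the mutant (limma, adjusted p = 2.3e-05 and 5.2e-05). In the wild type rgef-1 went from 3.55, 3.90 and 3.47 to 4.43, 4.86 and 4.74. The gene unc-119, needed for nervous system development, was at -0.32 ± 0.17 and -0.27 ± 0.17 and was not called (adjusted p = 0.16 and 0.25). The calcium-activated potassium channel gene slo-1 rose from 4.40, 4.15 and 4.14 to 5.19, 5.34 and 5.27 in the wild type (1.03 ± 0.14, adjusted p = 6.4e-06). In the mutant it rose by 0.93 ± 0.14 (adjusted p = 3.6e-05). The calcium channel subunit genes unc-2 (0.07 and 0.06) and unc-36 (0.25 in both genotypes) were not called.

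**Figure D2:**
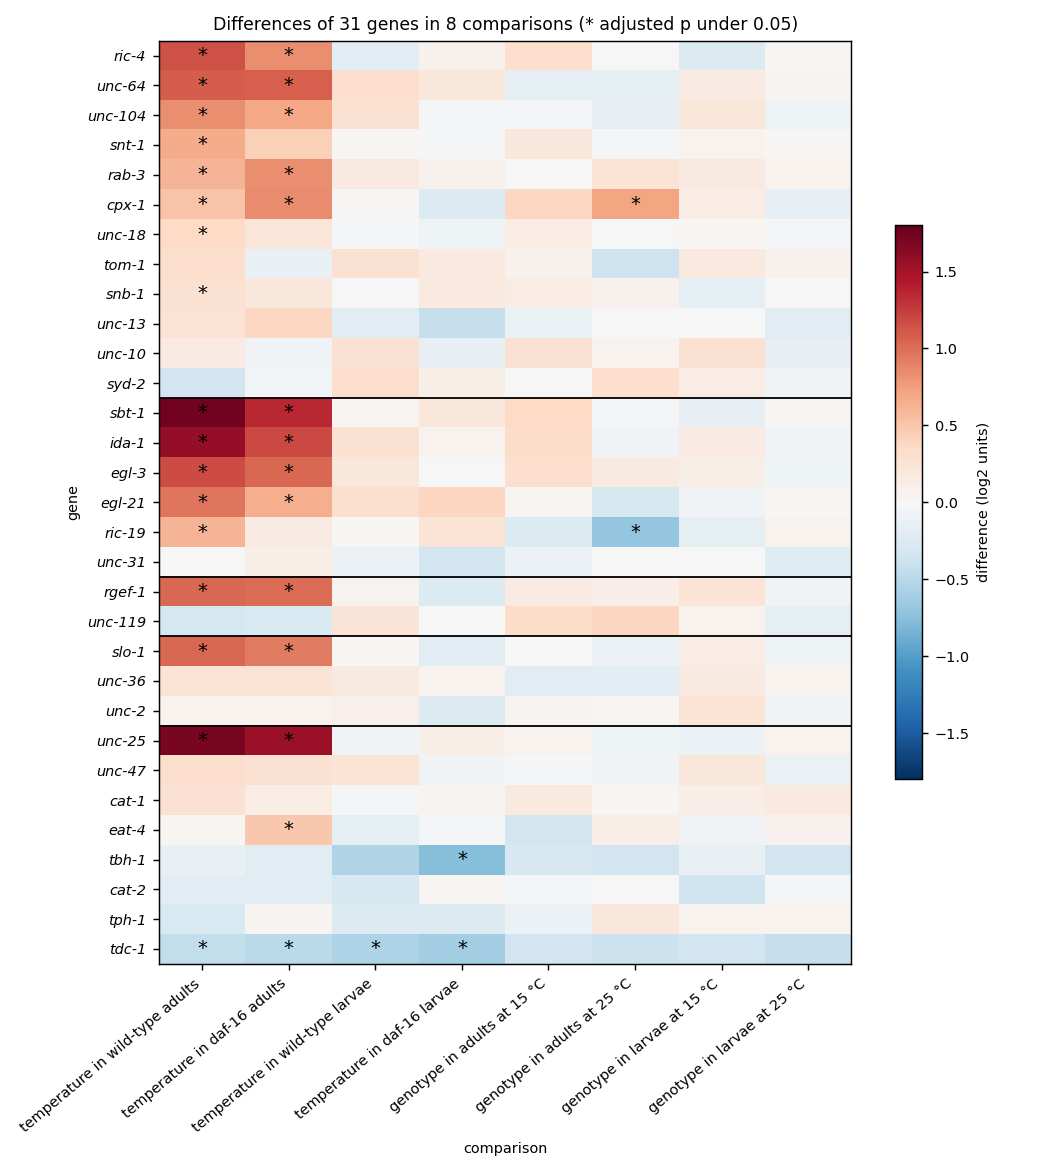
Differences (log2 units, colour) of the 31 members in the 4 temperature and 4 genotype comparisons, grouped by role and ordered within a role by wild-type adults; an asterisk marks an adjusted p under 0.05. The deepest red lies in the adult temperature columns, where 16 and 13 members were called higher, and the blue row of tdc-1 runs through all 8 columns.

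Transmitter genes followed no common course. The gene unc-25 encodes glutamic acid decarboxylase, which makes GABA. In wild-type adults unc-25 read 4.67, 4.46 and 4.49 at 15 °C and 6.47, 6.18 and 6.11 at 25 °C, a rise of 1.71 ± 0.17 or 3.27-fold (limma, adjusted p = 1.4e-07). In the mutant it read 4.20, 4.83 and 4.80 against 6.03, 6.46 and 5.97, a rise of 1.55 ± 0.17 (adjusted p = 8.6e-07). In the wild type only sbt-1, of the 31 members, had a larger difference. The vesicular GABA transporter gene unc-47 was not called, at 0.31 ± 0.19 and 0.27 ± 0.19 (adjusted p = 0.23 and 0.32).

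The enzyme gene tdc-1, tyrosine decarboxylase, moved the other way. It read 10.13, 10.36 and 10.25 in cool and 9.77, 9.88 and 9.74 in warm wild-type adults, and fell by 0.45 on the log2 scale (SE 0.12; limma, adjusted p = 0.008). In mutant adults tdc-1 read 9.92, 9.89 and 9.88 against 9.54, 9.35 and 9.33, and fell by 0.49 (adjusted p = 0.0062). The groups did not overlap in either genotype, but the wild-type difference was -0.28 with adjusted p = 0.11 after cyclic loess. The gene tbh-1, tyramine beta-hydroxylase, turns tyramine into octopamine, and in adults its differences were -0.13 ± 0.18 and -0.19 ± 0.18, with neither called. Both genes are known to be active in the gonadal sheath as well as in neurons. No marker of the sheath itself was listed. Of 14 germ line and oocyte markers, 1 fell and 0 rose in adults of each genotype. Their median level lay between 11.30 and 11.52 on cool and 11.24 and 11.30 on warm wild-type arrays, and between 11.20 and 11.32 and 11.09 and 11.21 in the mutant. Their part in the result was not tested.

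The remaining transmitter genes were dim. The genes cat-2, eat-4, tph-1 and unc-47 lay below the array median in all 8 groups and cat-1 in the 4 adult groups. Their products are tyrosine hydroxylase for dopamine, the vesicular glutamate transporter, tryptophan hydroxylase for serotonin, the GABA transporter and the vesicular monoamine transporter. Of these 5 genes, 1 was called, eat-4 in mutant adults, which rose from 2.77, 3.06 and 3.20 to 3.29, 3.72 and 3.45 (0.48 ± 0.16; limma, adjusted p = 0.031). That call was lost in 4 of 6 runs without 1 array and with arrays centred on their medians. In wild-type adults the 5 genes lay between -0.27 and 0.31 with adjusted p of at least 0.15. In adults only unc-25, tdc-1 and tbh-1 lay above the array median. Of these, unc-25 rose, as many release genes did, while tdc-1 fell and tbh-1 was not called. Because tdc-1 and tbh-1 are also active in the gonadal sheath, their whole-worm values cannot be read as those of neurons. Bright transmitter genes without this limit come down to unc-25, so a contrast with the release machinery cannot be judged here.

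In mutant adults, 13 of the 31 members rose at 25 °C and 1 fell, or 41.9% and 3.2%, against 13.4% and 11.2% of all genes and 23.2% and 16.5% of those above the adult median. Of the 16 that rose in the wild type, 12 (75%) rose in the mutant, and these are 92.3% of the 13. The genes called only in the wild type were snb-1, snt-1, unc-18 and ric-19. A test of the difference itself, temperature by genotype, called 0 of the 31 members in adults (limma), where 0.267% of all genes were called. At an unadjusted p under 0.05, where all genes were not counted, it had 2, ric-19 (-0.46 ± 0.18, adjusted p = 0.55) and tom-1. For the members that rose most, the 95% intervals of the difference were -0.80 to 0.04 for sbt-1 and -0.67 to 0.35 for unc-25. The mutant response of these genes was not shown to differ from that of the wild type. In larvae the same test called 0 of 31 members and 0% of all genes, and 0 members had an unadjusted p under 0.05.

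Larvae gave another picture. In wild-type larvae 0 of the 31 members rose at 25 °C and 1 fell, and in mutant larvae 0 rose and 2 fell. The test was limma's, and 4 members had an unadjusted p under 0.05 in each genotype, a threshold at which all genes were not counted. Over all genes, 2.25% rose and 2.03% fell in the wild type and 2.72% and 1.88% in the mutant. Among the 12683 genes above the larval median the shares were 3.79% and 3.4% in the wild type and 4.82% and 3.23% in the mutant. The 23 release, vesicle, regulator and channel genes lay between -0.19 and 0.31 in wild-type larvae and between -0.41 and 0.39 in mutant larvae. The median was 0.09 and 0.01.

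Of sbt-1, unc-25 and ida-1, which rose most in wild-type adults, none was called in larvae of either genotype. For sbt-1, wild-type larvae read 7.88, 7.98 and 7.82 at 15 °C and 7.80, 7.81 and 8.15 at 25 °C, and the groups overlapped. In mutant larvae sbt-1 read 7.71, 7.84 and 7.68 against 7.87, 7.88 and 8.09, every warm array above every cool one, but the difference of 0.20 ± 0.14 was not called (limma, adjusted p = 0.55). The larval differences of ida-1 were 0.28 ± 0.17 in the wild type and 0.06 ± 0.17 in the mutant. For unc-25 wild-type larvae read 6.07, 6.04 and 6.40 against 6.16, 5.96 and 6.18. The largest difference of a processing gene was that of egl-21, at 0.29 ± 0.12 and 0.39 ± 0.12. Its warm larval arrays were all above its cool ones in both genotypes, but it was not called in either.

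The tyramine enzyme gene tdc-1 fell in larvae as in adults. It read 6.51, 6.65 and 6.60 against 6.36, 5.83 and 5.88 in the wild type and fell by 0.56 (SE 0.12; limma, adjusted p = 0.01). In the mutant it read 6.33, 6.14 and 6.27 against 5.77, 5.58 and 5.49 and fell by 0.63 (adjusted p = 0.0036). The octopamine enzyme gene tbh-1 fell in mutant larvae, from 5.36, 4.75 and 5.53 to 4.45, 4.62 and 4.25 (-0.77 ± 0.18, adjusted p = 0.013), and was at -0.54 ± 0.18 in wild-type larvae (adjusted p = 0.092). Sheath markers were not listed for larvae either. Of 14 germ line and oocyte markers, 2 fell in wild-type and 4 in mutant larvae, among them oma-2 at -0.51 and -0.54. Their median level lay between 9.07 and 9.15 on cool and 8.62 and 9.02 on warm wild-type arrays, and between 8.98 and 9.12 and 8.32 and 8.83 in the mutant. Their part in these falls was not tested. Without wild-type larval 25 °C replicate 2 or 3 the wild-type call of tdc-1 was lost, and the mutant call of tbh-1 was lost without mutant larval 15 °C replicate 1 or 3 or 25 °C replicate 3.

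**Figure D3:**
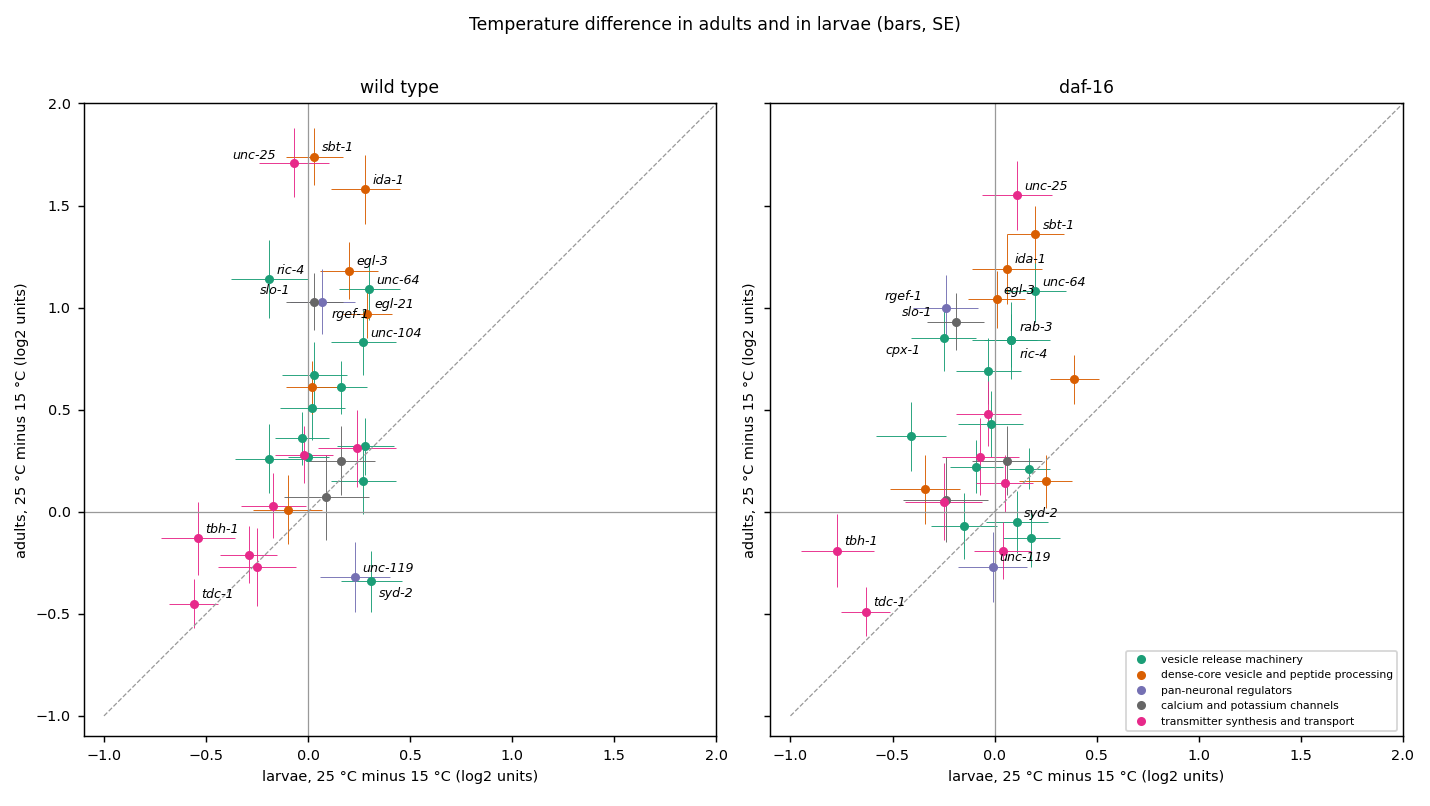
Temperature differences (25 °C minus 15 °C, log2 units) of the 31 members in adults (vertical axis) against larvae (horizontal axis), for wild type (left) and daf-16 (right); bars are SE and the dashed line marks equal differences. The points of sbt-1, unc-25, ida-1 and egl-3 stand well above the dashed line, while tdc-1 lies below 0 on both axes.

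The stages were compared through their temperature differences, each taken within its stage. In the wild type 10 members had a larger difference in adults and 1 a smaller one, against 8.66% and 5.1% of all genes. The smaller one was syd-2 (-0.65 ± 0.21, limma adjusted p = 0.042), whose call was lost with the preparation number as a block (adjusted p = 0.054). In the mutant the counts were 11 and 0, against 6.82% and 3.21%. These comparisons share arrays with those above and add only the test of the difference. The 7 genes called in both genotypes were sbt-1, ida-1, egl-3, unc-64, rgef-1, slo-1 and unc-25. The excess in adults was 1.71 ± 0.20 for sbt-1 and 1.78 ± 0.25 for unc-25 in the wild type (limma, adjusted p = 5.6e-06 and 3.4e-05). It was 1.16 ± 0.20 and 1.44 ± 0.25 in the mutant (adjusted p = 4.8e-04 and 4.3e-04). For tdc-1 the excess was 0.11 ± 0.18 and 0.15 ± 0.18, with 95% intervals of -0.26 to 0.48 and -0.22 to 0.51.

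Few members were called between genotypes, which does not show that the others were unchanged. The 95% intervals of the members together spanned -0.66 to 0.7 in adults at 15 °C and -0.96 to 1.03 at 25 °C. In larvae they spanned -0.66 to 0.69 at 15 °C and -0.72 to 0.48 at 25 °C. Of 31 members, 0 were called between genotypes in adults at 15 °C and in larvae at either temperature (limma). The share called over all genes was 1.47%, 0.0708% and 0.118%. At an unadjusted p under 0.05 there were 4, 2 and 1 members. All genes were not counted at that threshold, so these counts have no share to be set against. In adults at 25 °C 1 member was higher and 1 lower in the mutant, against 1.36% and 1.64% of all genes and 2.34% and 2.64% of those above the adult median. The higher gene was cpx-1, at 5.39, 5.67 and 5.54 in the mutant and 5.12, 4.68 and 4.68 in the wild type (0.71 ± 0.16, adjusted p = 0.012). The lower gene was ric-19, at 3.76, 3.82 and 3.79 against 4.39, 4.64 and 4.43 (-0.69 ± 0.13, adjusted p = 0.0024). The call of cpx-1 was lost without wild-type replicate 2 or 3 or mutant replicate 2.

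The genotype differences of tdc-1 ran the same way in every pair without being called in any. They were -0.35 and -0.39 in adults at 15 °C and 25 °C and -0.34 and -0.41 in larvae, with limma adjusted p = 0.20, 0.11, 0.50 and 0.47. In each of the 4 pairs every mutant array of tdc-1 was below every wild-type array. The mean of the 4 differences of tdc-1, computed after these values had been seen, was -0.37 ± 0.06 (limma, adjusted p = 0.0011). The only other member called by this mean was ric-19 (-0.25 ± 0.06, adjusted p = 0.027). Because the mean was chosen with these values known, its p-values describe them and are no independent support. Its neighbour in the pathway, tbh-1, was also lower in the mutant in every pair without being called. Its means in wild type and mutant were 10.8 and 10.51 in adults at 15 °C and 10.67 and 10.33 at 25 °C. In larvae they were 5.34 and 5.21 at 15 °C and 4.79 and 4.44 at 25 °C. The genotypes of tbh-1 did not overlap in adults but overlapped in larvae.

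Among genes that act beside the members, 128 were listed by role and 124 could be tested. In wild-type adults 60 of the 124 rose and 9 fell, against 15.1% and 15% of all genes. In mutant adults 55 rose and 3 fell, against 13.4% and 11.2%. In larvae 2 rose and 1 fell in each genotype, which is no more than the 2.25% and 2.03% of all genes in the wild type and the 2.72% and 1.88% in the mutant. Of 22 other transmitter enzymes and transporters, 13 rose and 1 fell in wild-type adults. They included snf-11, the plasma membrane GABA transporter (1.30 ± 0.17 and, in the mutant, 1.62 ± 0.17), and vglu-2, a relative of eat-4 (1.38 and 0.98). The acetylcholinesterase gene ace-3 rose by 1.48 ± 0.16 and 1.69 ± 0.16 (limma, adjusted p = 3.3e-07 and 8.4e-08).

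Of 10 other peptide processing genes, 4 rose and 1 fell in wild-type adults. The largest rise was that of pghm-1, which takes part in amidation of peptide ends (1.69 ± 0.15 and 1.09 ± 0.15; limma, adjusted p = 3e-08 and 1.6e-05). Of 35 other vesicle cycle genes, 13 rose and 5 fell, led by cab-1 (1.39 ± 0.12) and the active zone gene syd-1 (1.32 ± 0.17). Of 15 other channel genes 8 rose and 0 fell, led by unc-80 (1.39), a subunit of the sodium leak channel complex. Of 14 genes of G protein control of release 9 rose and 1 fell, led by the diacylglycerol kinase gene dgk-1 (1.31). Of 28 receptor genes 13 rose and 1 fell, led by the acetylcholine receptor subunit gene unc-38 (2.64 ± 0.20). The median difference of the 124 genes was 0.41 in wild-type and 0.34 in mutant adults.

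Markers of other tissues moved in the same adult comparison, and their part in the results was not tested. Of 12 body wall muscle markers, 10 rose and 0 fell in wild-type adults (median 0.71), and 4 rose and 1 fell in the mutant (median 0.32). Of 12 hypodermis markers, 6 rose and 0 fell in the wild type (median 0.47), led by sqt-3 (3.37), and 6 rose and 1 fell in the mutant. Of 21 markers of neuron classes, 10 rose and 0 fell in the wild type and 7 rose and 0 fell in the mutant. They included unc-86, a neuronal POU factor (1.98 and 1.91), and the peptide gene flp-1 (2.10 and 1.42). Of 12 early embryo markers 3 rose and 0 fell in the wild type (median -0.05), and 3 rose and 1 fell in the mutant. Of 12 intestine markers 2 rose and 2 fell, and 5 rose and 1 fell. Of 7 glia markers 2 rose and 0 fell in each genotype.

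The median level of the muscle markers lay between 8.01 and 8.11 on the cool and 8.59 and 8.75 on the warm wild-type adult arrays. That of the hypodermis markers went from 6.03 to 6.56 up to 7.69 to 8.11. That of the early embryo markers went from 4.52 to 5.36 up to 5.38 to 5.72, and in the mutant it was 5.97 to 6.17 and 6.03 to 6.18. Relative to each gene's adult mean, the wild-type embryo markers overlapped, at -0.4 to -0.05 cool and -0.18 to 0.08 warm. The wild-type intestine markers went from 8.47 to 8.74 down to 8.25 to 8.42 by median level. Relative to each gene's mean they went from -0.17 to -0.03 up to 0.04 to 0.2. The median level of the neuron class markers lay between 3.10 and 3.17 cool and 3.31 and 3.58 warm, below the adult array medians. Relative to each gene's adult mean, the dense-core vesicle genes lay at -0.64 to -0.51 on cool and 0.46 to 0.61 on warm wild-type arrays. The transmitter genes lay at -0.11 to 0.19 and -0.01 to 0.12, so that their arrays overlapped. The 22 other transmitter enzymes and transporters, by contrast, lay at -0.33 to -0.25 and 0.15 to 0.30, with no overlap, and the 8-gene list holds 5 genes below the array median.

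**Figure D4:**
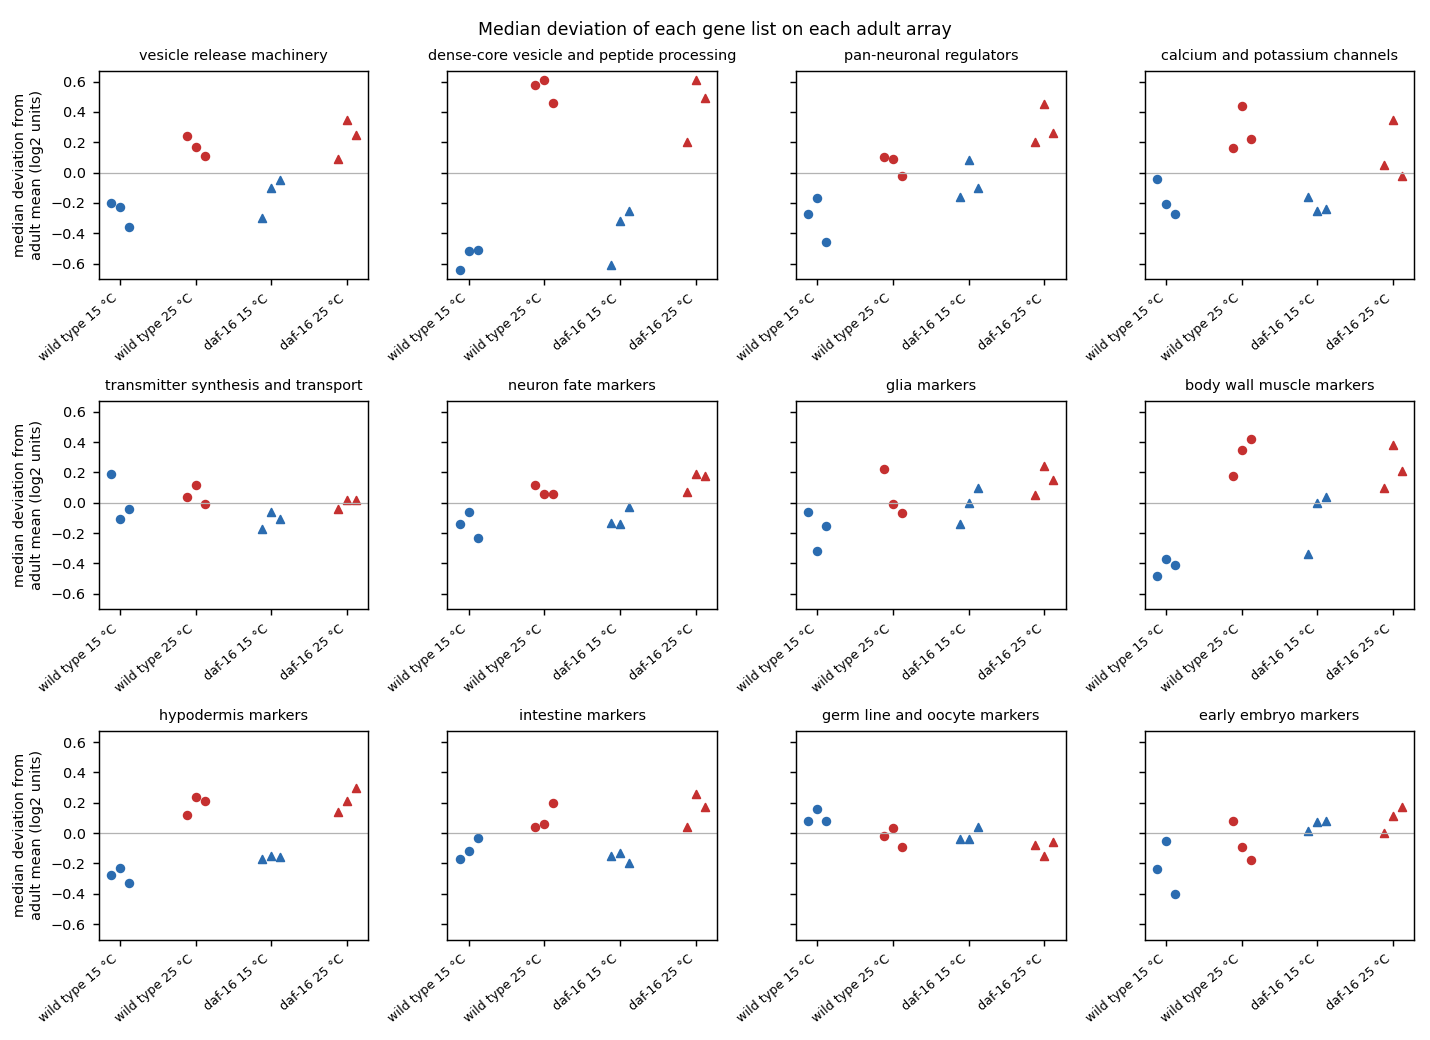
Median deviation of the genes of each list from their own mean over the 12 adult arrays (log2 units), 1 point per array; circles are wild type, triangles daf-16, blue 15 °C and red 25 °C. In the wild type all lists separate by temperature except the transmitter, glia and early embryo lists, which overlap. The germ line list is lower at 25 °C and the other separated lists are higher.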

How the data were processed

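The authors deposited RMA values, per the submitters' processing notes, and these run on a log2 scale, as their range shows. RMA's version and settings, and the genome build, are not given in the sources used here. Of 29317 probe sets, 25484 had 1 gene symbol in the platform annotation, 700 had several and 3133 had none. Of 41 genes with several probe sets the brightest on average was used, and 3 probe sets blank in adults were left out, giving 25434 genes with no filter on dim ones. limma 3.58.1 in R 4.3.3 fitted the 8 group means over 24 arrays (16 residual and 6.06 prior degrees of freedom). There were 12 comparisons, two-sided, each adjusted by Benjamini-Hochberg over all genes. Means over the 4 pairs of groups were added after the data had been seen. The median SE was 0.16 between groups and 0.22 where differences were compared. The number of arrays limits the precision.

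The members and lists were chosen with earlier results of these data known. All members were accounted for. Members called with groups apart were described in full, up to 5 a role and comparison, and up to 4 called genes of other lists were named by size. The calculation was tested on simulated data. Deviations from group means of arrays with the same preparation number correlated above 0.1 for all 3 numbers in 2 comparisons. These were temperature in the wild-type adult (0.26 to 0.34) and genotype in the 25 °C larva (0.15 to 0.45). In the other comparisons they did not. The titles do not state what a shared number means and unlike numbers were not compared, so pairing is not established. The main fit did not use the numbers. Alternatives were other scalings, filters, array weights, priors, stage-wise fits, a block for the preparation, probe set means and leaving out each array.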

Additional observations from a re-analysis of the deposited data

Results flagged for a closer look

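The temperature difference of several members was not the same in adults and larvae by a test of the difference itself. In the wild type the adult difference was larger for unc-25 (1.78), sbt-1 (1.71), ric-4 (1.33), ida-1 (1.30), slo-1 (1.01), egl-3 (0.99), rgef-1 (0.96), unc-64 (0.79), egl-21 (0.68) and ric-19 (0.58), and smaller for syd-2 (-0.65), with limma adjusted p from 5.6e-06 to 0.042. In daf-16 mutants it was larger for unc-25 (1.44), rgef-1 (1.23), sbt-1 (1.16), ida-1 (1.13), slo-1 (1.12), cpx-1 (1.10), egl-3 (1.04), unc-64 (0.88), unc-13 (0.78), rab-3 (0.76) and unc-104 (0.73), with adjusted p from 4.3e-04 to 0.047. The calls of syd-2 and ric-19 in the wild type and of unc-104 and unc-13 in the mutant were lost in 11, 10, 12 and 8 of 20 alternatives.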

How the results depend on the processing

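Of 58 calls of members over the 12 comparisons, 45 held under every alternative run, and 0 of 944 values changed sign. Leaving out 1 array gave 14 to 16 members called between temperatures in adults of the wild type (17 with all arrays), 13 to 15 in mutant adults (14), 0 to 2 in wild-type larvae (1), 1 to 2 in mutant larvae (2) and 1 to 2 for genotype in adults at 25 °C (2). It gave 8 to 12 for temperature by stage in the wild type (11) and 9 to 11 in the mutant (11), and 0 for temperature by genotype and the other genotype comparisons. With only the arrays of the stage in the fit, fewer arrays estimate the spread, and 0 members were called in wild-type larvae, 1 in mutant larvae and 1 for genotype in adults at 25 °C. With array weights the counts were 2 in wild-type larvae and 4 for genotype in adults at 25 °C. The cause was not tested. With the preparation number as a block, there were 17 calls between temperatures in adults of the wild type and 10 and 12 by stage. The block ended 1 call of a member, syd-2 by stage (adjusted p = 0.054). After arrays were centred on medians, the rises as a percentage of all calls moved from 54.3% to 43.4% in mutant adults and from 63% to 52.8% by stage in the wild type. Genes below the array median limit what can be said of 5 transmitter genes.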

Other observations

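A pair of receptor genes beside the members differed between genotypes in their adult response to temperature. The gene ser-4, a serotonin receptor, went from a mean of 6.09 ± 0.16 (SD, n = 3) to 7.62 ± 0.13 in wild-type adults and from 6.40 ± 0.04 to 6.38 ± 0.16 in mutant adults. The difference between the responses was -1.55 ± 0.17 (SE; limma, adjusted p = 4.8e-05). The acetylcholine receptor subunit gene unc-38 went from 3.70 ± 0.15 to 6.34 ± 0.58 (SD, n = 3) in the wild type and from 3.65 ± 0.21 to 4.51 ± 0.10 in the mutant. Its difference was -1.78 ± 0.28 (SE; limma, adjusted p = 0.003). These were the 2 of 124 listed genes called in that comparison, and 0 of 31 members were.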
